A study of Mus musculus with 8 samples.

Results

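The genes described here license DNA for replication and prepare the replication fork: Mcm2, Mcm3, Mcm4, Mcm5, Mcm6, Mcm7, Cdc6, Cdt1, Gins1 and Pcna, which are 10 of the 17551 gene symbols measured. They were chosen by symbol, and where a symbol had several RefSeq transcripts (Cdc6 and Gins1) the transcript with the highest mean was used. The RNA came from lineage-negative bone marrow of mice, the fraction left when mature blood cells are depleted, which is enriched for stem and progenitor cells. All cells came from C57BL/6 mice labelled Ring1a-/- and Cdkn2a-/-, so that controls as well as treated cells lacked Ring1a, a ubiquitin ligase of the Polycomb repressive complex PRC1, and the INK4A/ARF tumour suppressor locus. In each of 4 contexts, the library labelled Ring1b WT came from cells given ethanol for 72 h (control) and the library labelled Ring1b KO from cells given OHT (4-hydroxytamoxifen) for 72 h, Ring1b being the alternative PRC1 ligase. The contexts were NT, labelled as carrying no introduced gene, and cells transduced with HOXA9, a homeobox gene, or with PML-RARa or MLL-AF9, leukaemia fusion genes. The column heads of the NT table read Empty, and which recombinase OHT acts on and how many mice were used are not given in the labels.

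Licensing takes place in G1 phase of the cell cycle. The origin recognition complex, bound to DNA, recruits CDC6 and CDT1, which load rings made of 1 copy each of MCM2 to MCM7 onto the double helix. At the start of S phase, CDC45 and the GINS complex join each ring and turn it into the active helicase, and PCNA, a sliding clamp, holds the DNA polymerases on the template. Many of these genes are transcribed in proliferating cells through E2F factors and are low in resting cells, and blood progenitors are among the fast dividing cells of the adult.

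There was 1 library in each of the 8 groups, with 4226751 to 6998223 reads. The values are the authors' normalised read counts per transcript. The contexts served as the replicates of the OHT comparison: each OHT library was set against the control of its own context, and limma tested the mean of the 4 log2 ratios over the 10599 transcripts whose mean value was 20 or more (adjusted p under 0.05, Benjamini-Hochberg). Within a context no test was possible, and the 95% intervals given there cover counting error only. The gene named in the treatment label, Rnf2 (Ring1b), did not pass the test over its whole transcript (mean log2 ratio -0.04 ± 0.14 SE, 95% interval -0.41 to 0.33, adjusted p = 0.85 in limma). Its control and OHT values were 666 and 802 in NT, 896 and 856 with HOXA9, 990.4 and 771 with PML-RARa and 769.8 and 767 with MLL-AF9. Ring1, the gene of Ring1a, was detected in the control libraries at 109 to 191 and fell with OHT in all 4 contexts (mean log2 ratio -1.81 ± 0.33 SE, adjusted p = 0.040). The labels do not give the deleted part of either gene, so these values do not check the labels, and the treated libraries are called OHT below.

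Across the 4 contexts, OHT libraries had lower values of the genes of the MCM ring, of CDT1 and of the GINS subunit, while the clamp gene Pcna stayed near its control value. Mcm6 and Mcm7 fell by the limma test (adjusted p = 0.039 and 0.046), 2 of the 9 genes tested, against 7.48% of all tested transcripts called lower. Of the other tested genes, 6 had adjusted p-values from 0.051 to 0.068, and Pcna had 0.48. By edgeR's quasi-likelihood test on the recovered reads, 7 of the 9 were lower at an adjusted p under 0.05 (all 6 MCM genes and Cdt1), against 9.05% of transcripts, and by DESeq2 8 of the 9 were, against 12.9%. At an unadjusted p under 0.05 limma also had 8 of 9 lower, against 20.8%. OHT was below control in all 4 contexts for 9 of the 10 genes, against 26.5% of all tested transcripts. For 9 of the 10, every OHT library was below every control library, which held for 12.6% of tested transcripts. Both counts of 9 include Cdc6, which was too low for the test. The call of Mcm6 and Mcm7 was lost when any 1 pair was left out (0 of 9 each time). Over all 10599 transcripts, limma then called 2 lower and 24 higher without the NT pair, and 0 in either direction without any 1 of the other pairs. Since the libraries hold whole cell populations, fewer cells in cycle and less RNA per cell cannot be told apart.

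**Figure D1:**
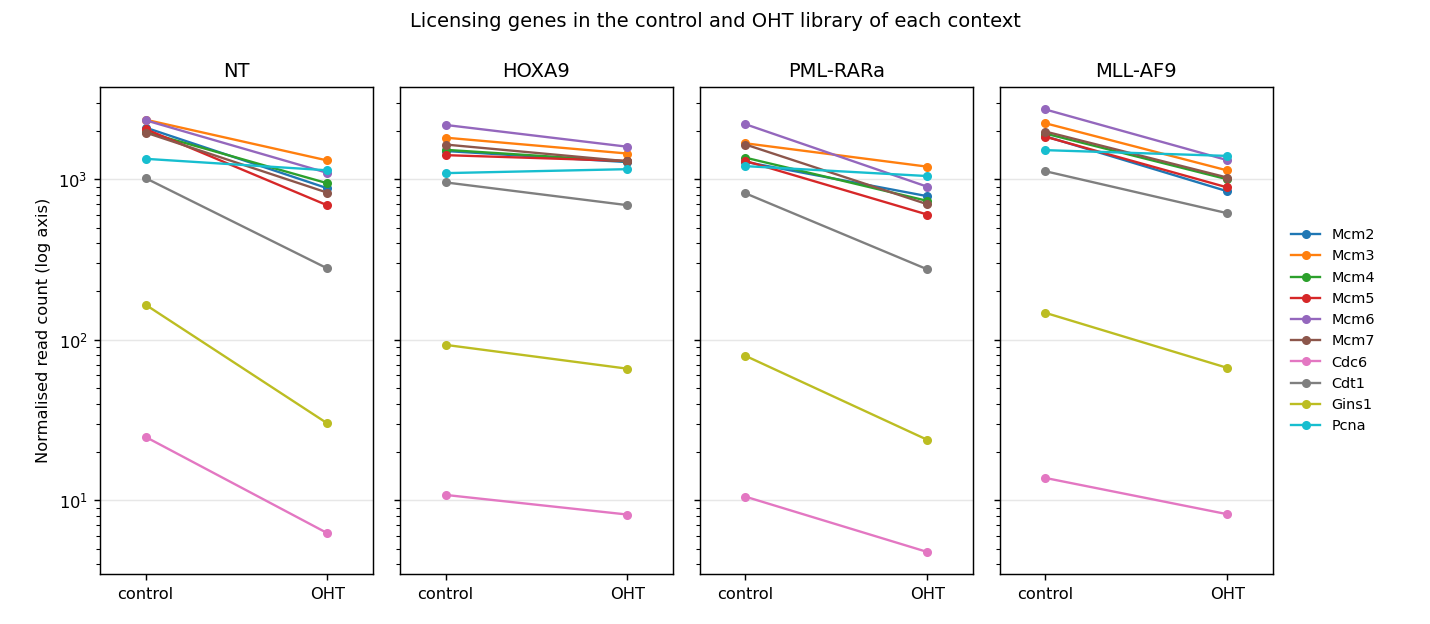
Normalised read counts (log axis) of the 10 genes in the control and OHT library of each context, 1 line per gene. The lines of the MCM genes, Cdt1 and Gins1 slope downwards in NT, PML-RARa and MLL-AF9 and are flatter in HOXA9, and the line of Pcna is nearly level in every panel (85 to 106% of control).

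MCM6, a subunit of the ring, had the lowest adjusted p-value of the 9 genes tested. Mcm6 (NM_008567) went from 2335 to 1097 (NT), 2183 to 1597 (HOXA9), 2206 to 899.8 (PML-RARa) and 2726 to 1318 (MLL-AF9) with OHT. All 4 OHT libraries were below the lowest control library, and the mean log2 ratio was -0.97 ± 0.17 (SE, n = 4 contexts, limma adjusted p = 0.039). MCM7, another subunit, had nearly the same ratio. Mcm7 (NM_008568) had 1958 and 826 in NT, 1648 and 1296 with HOXA9, 1649 and 699.8 with PML-RARa and 1985 and 1026 with MLL-AF9, control before OHT. The groups did not overlap, and the mean log2 ratio was -0.94 ± 0.19 (adjusted p = 0.046, limma). In GENCODE exon models of GRCm38, Mcm7 shares 321 exon bases (7.25% of its own) with Ap4m1 and 64 with Cops6 on the opposite strand, and 84 and 88 with the microRNA genes Mir25 and Mir93 on its own strand. The library kit does not keep the strand. Exons of the other 9 genes overlap no other gene.

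Mcm5 had both the lowest and the highest ratio of any MCM gene in any context. Mcm5 (NM_008566) stood at 2058 in the NT control and 689 with OHT, and at 1416 and 1302 in HOXA9. In PML-RARa its values were 1302 and 603, and in MLL-AF9 1843 and 891. The highest OHT library (HOXA9, 1302.17) was level with the lowest control (PML-RARa, 1302.31), so the groups were barely separate. The mean log2 ratio was -0.96 ± 0.26 (SE), with a limma adjusted p of 0.068 and an edgeR adjusted p of 0.047.

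Mcm2, Mcm3 and Mcm4 had the smaller mean ratios of the ring. Mcm2 (NM_008564), whose protein also carries a histone-binding tail, had control and OHT values of 2102 and 880.0 in NT, 1502 and 1280.45 with HOXA9, 1284 and 785 with PML-RARa and 1854 and 843 with MLL-AF9. Its mean log2 ratio was -0.83 ± 0.21 (adjusted p = 0.061 in limma and 0.041 in edgeR), and the highest OHT library (HOXA9) again stood just under the lowest control (PML-RARa). Mcm3 (NM_008563) had 2355 and 1311 in NT, 1819 and 1449 with HOXA9, 1677 and 1199.7 with PML-RARa and 2236 and 1136 with MLL-AF9. The lowest control (PML-RARa, 1677) was above the highest OHT library (HOXA9, 1449), with a mean log2 ratio of -0.66 ± 0.16 (adjusted p = 0.055 in limma and 0.036 in edgeR). Mcm4 (NM_008565) had 1978 and 946 in NT, 1528 and 1294 with HOXA9, 1364 and 734 with PML-RARa and 1929 and 1001 with MLL-AF9. Its mean log2 ratio was -0.79 ± 0.18 (adjusted p = 0.051 in limma and 0.029 in edgeR), and its HOXA9 OHT library was the only one of the OHT libraries near the control range.

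Of the loading factors, Cdt1 (NM_026014) was well measured and Cdc6 was not. Cdt1 stood at 1018 in the NT control and 278 with OHT, at 957 and 690.4 with HOXA9, at 818 and 275 with PML-RARa and at 1123 and 615 with MLL-AF9. Every OHT value lay below every control value, and the mean log2 ratio was -1.19 ± 0.27 (SE, adjusted p = 0.052 in limma and 0.034 in edgeR), larger in size than that of any MCM gene. In NT the OHT library held 27.4% of the control value (23.9 to 31.3%). Cdc6 (NM_001025779), the ATPase that works with CDT1, had values of 24.8 and 6.23 in NT, 10.8 and 8.14 with HOXA9, 10.5 and 4.76 with PML-RARa and 13.8 and 8.19 with MLL-AF9. These rest on 4 to 30 reads per library, and the mean was under the minimum for the test. OHT was lower in 4 of 4 contexts, and the counting interval of the ratio excluded no change only in NT (25.1% of control, 8.55 to 61.3%). A further Cdc6 transcript had 1 to 2 reads per library.

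Gins1 (NM_027014), a subunit of the GINS complex that activates the loaded ring, had the lowest ratio of the tested genes. Its values were 165 and 30.1 in NT, 93.0 and 66.1 with HOXA9, 79.4 and 23.8 with PML-RARa and 147 and 66.8 with MLL-AF9, control before OHT. The lowest control (PML-RARa) was above the highest OHT library (MLL-AF9). Its mean log2 ratio across contexts was -1.43 ± 0.34 (SE), with an adjusted p of 0.056 in limma, 0.052 in edgeR and 0.010 in DESeq2, and 20 to 200 reads stood behind each value. A further Gins1 transcript had 1 to 3 reads per library. The OHT library held 18.2% of the control value in NT (11.9 to 27.0%), 71.0% in HOXA9 (52.2 to 96.3%), 29.97% in PML-RARa (17.4 to 49.3%) and 45.4% in MLL-AF9 (32.1 to 63.3%). In the authors' deposited table of NT, Gins1 was the only one of the 10 genes with an unadjusted p under 0.05 (0.0346), which sets 1 library against 1 and does not test the treatment. In the other 3 tables none had.

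Pcna (NM_011045), the sliding clamp of S phase and repair synthesis, differed least. It had 1343 and 1139 in NT, 1093 and 1157 with HOXA9, 1209 and 1049 with PML-RARa and 1521 and 1399.7 with MLL-AF9. OHT was lower in 3 of 4 contexts, the groups overlapped, and the mean log2 ratio was -0.12 ± 0.11 (SE, limma adjusted p = 0.48, 95% interval -0.42 to 0.18). Set against the mean of the 6 MCM genes, the log2 ratio of Pcna was higher by 0.94 in NT, 0.37 with HOXA9, 0.75 with PML-RARa and 0.90 with MLL-AF9. The mean of that difference was 0.74 ± 0.26 (SD, n = 4 contexts, exact two-sided sign-flip test p = 0.125, the smallest that 4 pairs allow). Pcna was also the gene with the most reads per base of transcript (up to 1.07). Of 18873 transcripts with a known length, 402 had more than 1 read per base in a library, and the highest had 2.12. The part of this density in the Pcna ratio was not tested. The reference annotation holds 2 processed pseudogenes of Pcna, Pcna-ps1 and Pcna-ps2, whose reads could be confused with it. Of the MCM genes, the highest reads per base ran from 0.666 for Mcm4 to 0.970 for Mcm6.

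**Figure D2:**
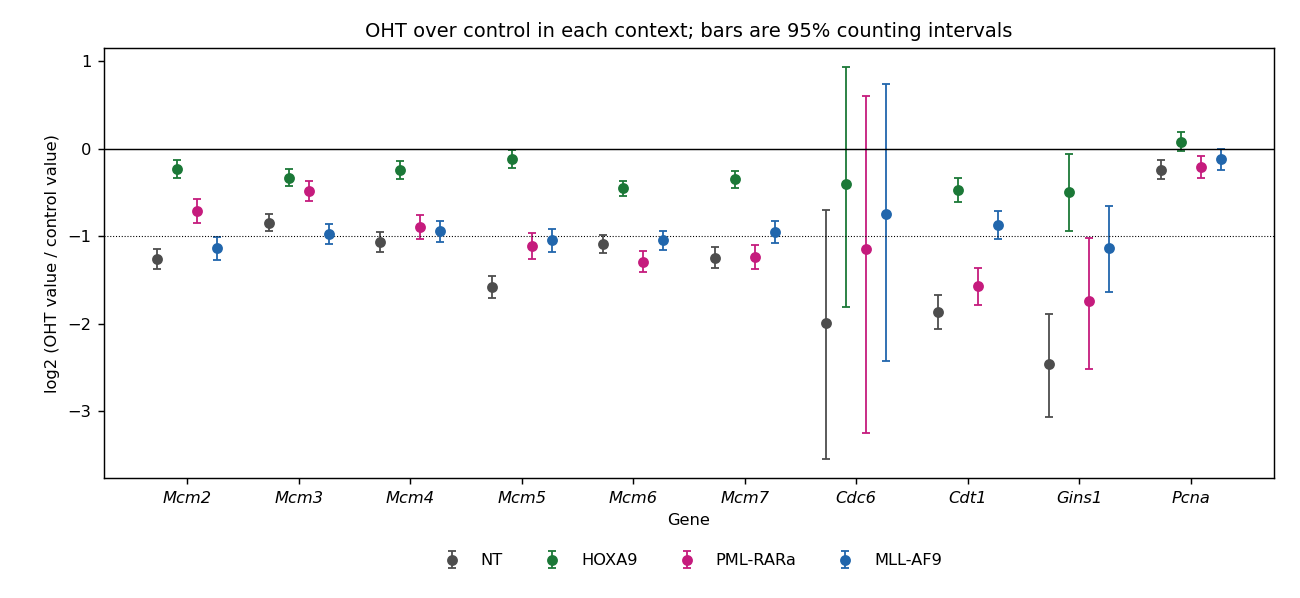
Log2 ratio of OHT over control for each gene in each context, with 95% counting intervals as bars, a solid line at no change and a dotted line at a halving. HOXA9 has the ratio nearest to or above 0 for every gene, and the interval of Cdc6 is the widest.

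Because E2F factors are the textbook regulators of licensing genes, the promoter windows were searched for E2F words. RefSeq windows of GRCm38.p6, from 250 bases before to 50 bases after the start, were found for 8 of the genes, with a pair for Mcm7. The words TTTCCCGC, TTTCGCGC, TTTGCCGC and TTTGGCGC were searched on both strands, and they may overlap each other. At least 1 occurred in 6 of 9 windows (66.7%), those of Mcm3, Mcm5, Mcm6, Mcm7, Cdc6 and Cdt1. Of all 32851 windows of that length 2.26% held one, of the 10026 windows of tested genes 4.20%, and of 63 windows of the other replication genes listed further on 25.4%. None was found for Mcm2, for Pcna or in the other Mcm7 window. The word CCAAT, bound by NF-Y, was found on either strand in 7 of 9 windows, against 37.4% of all. A match is a description of letters and shows no binding. The upstream 250 bases of Mcm6 and Mcm5 are shown because they hold E2F words read on both strands. Those of Pcna are shown as an example without one. The Mcm2 window holds none either, and the mean log2 ratio of Mcm2 was -0.83, beside -0.12 for Pcna. Each stretch is written 5′ to 3′ on the strand of the gene with E2F words in capitals.
Mcm6 chr1:128359706-128359955 (-): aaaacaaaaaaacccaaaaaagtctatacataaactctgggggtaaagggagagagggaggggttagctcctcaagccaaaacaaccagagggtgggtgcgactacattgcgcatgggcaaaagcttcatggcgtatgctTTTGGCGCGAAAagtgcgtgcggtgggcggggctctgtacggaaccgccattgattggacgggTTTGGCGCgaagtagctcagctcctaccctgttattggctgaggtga
Mcm5 chr8:75109259-75109508 (+): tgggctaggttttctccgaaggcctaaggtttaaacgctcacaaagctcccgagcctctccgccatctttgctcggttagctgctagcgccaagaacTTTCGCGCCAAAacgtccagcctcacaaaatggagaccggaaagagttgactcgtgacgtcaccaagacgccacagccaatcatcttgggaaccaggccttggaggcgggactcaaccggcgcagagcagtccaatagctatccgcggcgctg
Pcna chr2:132253181-132253430 (-): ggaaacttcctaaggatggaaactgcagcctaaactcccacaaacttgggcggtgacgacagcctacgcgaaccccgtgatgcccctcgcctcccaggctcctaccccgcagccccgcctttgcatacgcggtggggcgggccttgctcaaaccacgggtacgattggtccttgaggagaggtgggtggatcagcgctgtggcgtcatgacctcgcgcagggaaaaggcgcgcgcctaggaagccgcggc

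The E2F words of the other windows are shown in 30-base stretches, in the same way, to let their spacing and flanks be compared.
Mcm3 chr1:20820275-20820304 (-): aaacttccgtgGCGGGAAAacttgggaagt
Mcm3 chr1:20820263-20820292 (-): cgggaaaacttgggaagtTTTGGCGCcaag
Mcm7 chr5:138172030-138172059 (-): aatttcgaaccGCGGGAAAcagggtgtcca
Mcm7 chr5:138171849-138171878 (-): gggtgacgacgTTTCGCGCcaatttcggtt
Cdc6 chr11:98908002-98908031 (+): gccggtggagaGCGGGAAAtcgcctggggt
Cdt1 chr8:122568035-122568064 (+): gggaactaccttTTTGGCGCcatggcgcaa

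In Mcm5 the words TTTCGCGC and TTTGGCGC overlap on opposite strands, 153 bases before the start site, and Mcm6 carries the reverse complement of that stretch 110 bases before it and a single word 47 bases before it. The words of Mcm3 start 20 and 39 bases after the start, those of Mcm7 165 before and 17 after, that of Cdc6 138 before and that of Cdt1 33 after. In Mcm7 the word after the start shares 1 base with a CCAAT. Whether the presence of a word goes with the OHT ratio was not tested.

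In NT, the cells without an introduced gene, 8 of the 10 genes were at least 2-fold lower with OHT. Cdc6, which was not tested, is 1 of them, so 7 of the 9 tested genes were, against 7.93% of tested transcripts. The MCM genes held 33.5% (Mcm5) to 55.7% (Mcm3) of their control values. In PML-RARa 5 of the 10 were at least 2-fold lower (12.4% of transcripts), with the MCM genes at 40.8% (Mcm6) to 71.5% (Mcm3) of control. In MLL-AF9 4 were (13.9% of transcripts), and the MCM genes lay close together, near the 2-fold line, at 45.5 to 51.9%. In HOXA9 none was (5.14% of transcripts), and the MCM genes held 73.1% (Mcm6) to 91.99% (Mcm5). No gene was at least 2-fold higher in any context. Without regard to size, OHT was below control for 10 of 10 genes in NT, PML-RARa and MLL-AF9 and for 9 of 10 in HOXA9, against 47.7%, 56.3%, 55.1% and 48.9% of transcripts in that order. The median log2 ratio of the 9 tested genes was -1.24 in NT, -0.33 with HOXA9, -1.11 with PML-RARa and -0.98 with MLL-AF9, beside 0.03, 0.01, -0.09 and -0.10 for all tested transcripts. The counting interval of the OHT over control ratio lay below 1 for 10 genes in NT, 8 in HOXA9 and 9 in each of the fusion contexts. Of all tested transcripts, 31.2% (NT), 28.8% (HOXA9), 37.8% (PML-RARa) and 40% (MLL-AF9) had such an interval. The interval narrows with more reads, so these counts and shares also depend on read depth. Pcna in MLL-AF9, at 92.1% of control (84.9 to 99.8%), counts as below 1.

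HOXA9 gave the highest of the 4 ratios for all 10 genes, against 30.9% of tested transcripts. Its difference from the other 3 contexts, a comparison chosen after the values were seen, was tested with limma: 0 of 9 genes passed at an adjusted p under 0.05 and 1 at an unadjusted p under 0.05, with 2.3% of all transcripts higher in HOXA9 at that level. That gene was Mcm5, with a difference of 1.12 ± 0.35 (log2, SE, limma adjusted p = 0.9998). edgeR and DESeq2 also gave 0, with 2 and 1 genes at an unadjusted p under 0.05. Mcm4 differed by 0.73 ± 0.26 and Gins1 by 1.26 ± 0.61, so a difference of HOXA9 from the other contexts was not detectable with 1 pair against 3.

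In the 3 transduced contexts alone, limma called 0 of the 9 tested genes (0.0189% of transcripts were called lower), with 8 lower at an unadjusted p under 0.05 (16.9% of transcripts) and adjusted p-values from 0.10 to 0.74. edgeR called 0 (1.6% of transcripts were lower) and DESeq2 6 (7.22%). The 8 at an unadjusted p under 0.05 became 7 without the HOXA9 pair, 1 without the PML-RARa pair and 0 without the MLL-AF9 pair. Pcna, at -0.08 in limma, was at 0.02 in edgeR and 0.01 in DESeq2. The mean log2 ratio over these 3 contexts was -0.93 ± 0.22 (SE) for Mcm6, -0.84 ± 0.23 for Mcm7, -0.97 ± 0.27 for Cdt1 and -1.10 ± 0.28 for Gins1. NT had the lower ratio for all 9 tested genes when set against the mean of the transduced contexts, but limma called 0 of them at an adjusted p under 0.05 and 0 at an unadjusted p under 0.05 (5.41% of all transcripts in either direction). The largest difference in size was that of Gins1, -1.32 ± 0.57 (SE, 95% interval -2.89 to 0.26, limma adjusted p = 0.96), and the smallest were those of Pcna, -0.16 ± 0.30 (-0.99 to 0.68), and Mcm6, -0.16 ± 0.45 (-1.41 to 1.09). Without the HOXA9 pair the difference of Mcm6 was 0.08. These intervals are wide enough to hold both no difference and a 2-fold one for 8 of the 9 genes and nearly so for Pcna.

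The control libraries already differed between contexts. In the HOXA9 control, the 9 tested genes stood at 0.56 (Gins1) to 0.94 (Cdt1) of the NT control value, all below it, as were 57% of tested transcripts. In the PML-RARa control they stood at 0.48 (Gins1) to 0.94 (Mcm6), again 9 of 9 below, against 55.8%. In the MLL-AF9 control, 5 were below and 4 above NT, from 0.88 (Mcm2) to 1.17 (Mcm6), against 51.3% below. Among controls, only Gins1 in PML-RARa was at least 2-fold from NT, of these 9 genes. Of tested transcripts, 18.1% (HOXA9), 19.4% (PML-RARa) and 19.2% (MLL-AF9) were. Cdc6, too low for the test, stood at 0.43 (HOXA9), 0.42 (PML-RARa) and 0.55 (MLL-AF9) of the NT control. With OHT the order was another one. The HOXA9 OHT library was above the NT OHT library for 9 of 9 genes, at 1.016 (Pcna) to 2.48 (Cdt1) times its value, where 49.9% of tested transcripts were above. The PML-RARa OHT library was below that of NT for 9 of 9 (0.78 to 0.99), as were 64.8% of transcripts. The MLL-AF9 OHT library was above it for 7 of 9 and below for 2 (0.87 to 2.22), with 43.3% of transcripts above. With 1 library each, these differences between contexts have no test.

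Per kilobase of transcript, the summed value of the 6 MCM genes went from 4024 to 1817 with OHT in NT, 3197 to 2589.9 with HOXA9, 3014 to 1557 with PML-RARa and 3978 to 1967 with MLL-AF9. The OHT library thus held 45.2%, 81.0%, 51.7% and 49.4% of the control sum. The protein ring needs its subunits in equal number, whereas the transcript levels per kilobase were not equal: the highest MCM gene stood 1.46 to 2.22 times above the lowest in a library. Mcm6 (19.9 to 25.1% of the sum) and Mcm3 (18.4 to 25.4%) took more than an equal share of 16.7% in all 8 libraries. Mcm2 (12.6 to 15.5%), Mcm4 (12.6 to 14.5%) and Mcm5 (11.2 to 15.1%) took less in all 8, and Mcm7 (15.2 to 18.5%) lay around it. The order at the top turned in 2 OHT libraries: Mcm3 was highest in the OHT libraries of NT and PML-RARa and Mcm6 in the other 6 libraries. The share of Mcm3 went from 19.3 to 23.8% in NT and from 18.4 to 25.4% in PML-RARa, but from 18.8 to 18.5% in HOXA9 and from 18.5 to 19.1% in MLL-AF9. Mcm5 moved the other way in NT, from 15.1 to 11.2%. Of the remaining genes, Pcna had 691 to 1002 per kilobase, Cdt1 126 to 513, Gins1 21.9 to 152 and Cdc6 1.03 to 5.38. The Cdc6 values rest on 4 to 30 reads per library.

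**Figure D3:**
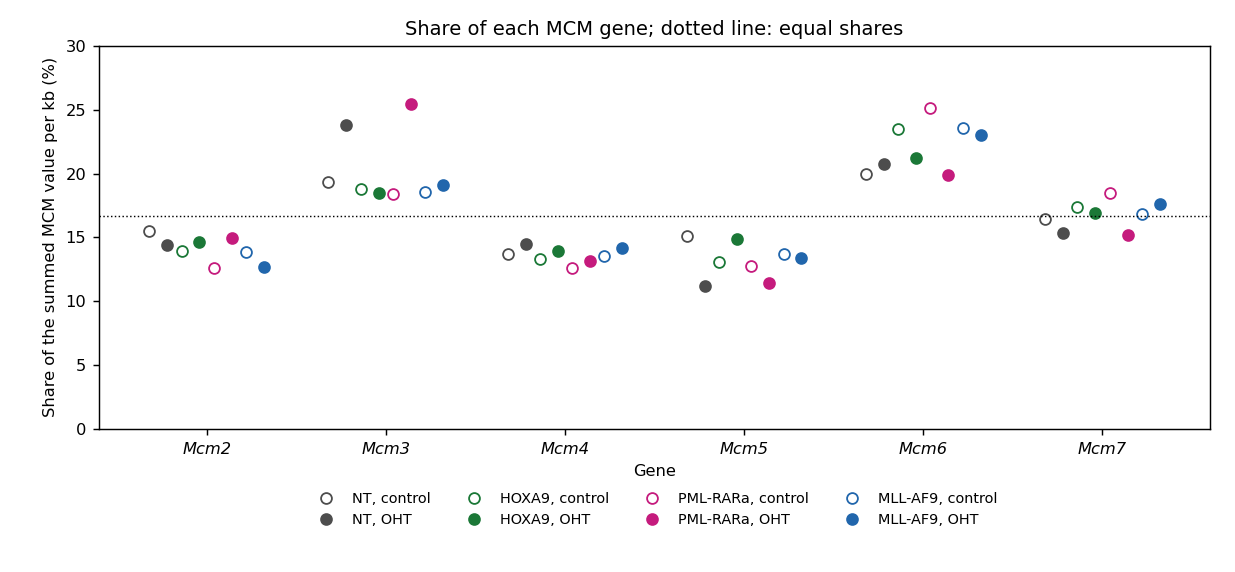
Share of each MCM gene in the summed MCM value per kilobase (%), 1 point per library, with a dotted line at equal shares (16.7%). Mcm3 and Mcm6 lie above the line and Mcm2, Mcm4 and Mcm5 below it in every library, and the 2 highest Mcm3 points (23.8 and 25.4%) are the OHT libraries of NT and PML-RARa.

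The other genes of DNA replication were examined from lists drawn up by function, 80 genes of which 68 were tested. With OHT, 39 of them fell by the limma test and 0 rose, and edgeR called 41 lower. Of all tested transcripts, limma called 7.48% lower and 6.4% higher and edgeR 9.05% lower, which is the background of each list count that follows. When any 1 pair was left out limma called 0 of them. Their median log2 ratio was -0.91, close to the -0.94 of the 9 licensing genes tested, beside -0.03 for all tested transcripts (quartiles -0.40 to 0.34). The median was -1.13 in NT, -0.41 with HOXA9, -0.94 with PML-RARa and -1.10 with MLL-AF9, so that HOXA9 was again nearest to 0. Among the genes of at most 0.5 reads per base, 30 of 54 were lower with a median of -0.98, and among those above it 9 of 14 with a median of -0.84.

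Of the origin recognition complex, which marks origins, 3 genes were tested and 1 fell. Orc5 had a mean log2 ratio of -1.08 ± 0.19 (SE, limma adjusted p = 0.039). Orc1, the cycling subunit, stood at -1.35 ± 0.34 (adjusted p = 0.060) and Orc4 at -0.54 ± 0.14 (0.066), both lower in 4 of 4 contexts. Of the regulators of licensing, 4 of 9 fell. Dtl, the substrate receptor that marks CDT1 for destruction on PCNA-bound DNA, went from 1087 to 303 with OHT in NT, 931 to 487 with HOXA9, 687 to 237 with PML-RARa and 1363 to 312 with MLL-AF9 (-1.61 ± 0.22, limma adjusted p = 0.035). Its groups did not overlap. Gmnn (geminin), the inhibitor of CDT1, fell by 0.82 ± 0.16 on the log2 scale, Fbxo5 (EMI1), an inhibitor of the anaphase-promoting complex, also fell (-1.501 ± 0.203), as did Mcm8, a helicase of repair (-1.40 ± 0.17). Those that did not pass were Mcmbp (-0.50), Kat7 (-0.55), Mcm9 (-0.24), and the ubiquitin ligase genes Cul4a (-0.20) and Ddb1 (-0.04), with which DTL works. Orc2, Orc3, Cdc7, Dbf4, Skp2 and Timeless had means under 20 and were not tested, and Orc6 was not analysed here.

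The genes that activate the loaded ring had 9 of 13 lower and 0 higher, with a median log2 ratio of -1.28. The lowest were Recql4 (-1.99 ± 0.36), Ticrr (treslin, -1.83 ± 0.30), Mcm10 (-1.81 ± 0.26) and Cdc45 (-1.76 ± 0.39), all needed to start the fork. Clspn (-1.55), Gins3 (-1.29), Wdhd1 (-1.28), Topbp1 (-0.92) and Tipin (-0.83) also fell. The GINS complex was measured through all 4 subunits. Of these Gins3 passed (adjusted p = 0.047), while Gins1, described above, Gins2 (-0.995 ± 0.304, adjusted p = 0.085) and Gins4 (-0.42 ± 0.12, adjusted p = 0.073) did not pass in limma. Gins4 had the ratio nearest to 0 of the 4, and the difference between subunits was not tested. Mtbp (-0.99) and Donson (-0.49) did not pass either.

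Downstream of licensing, 16 of 27 tested genes of the polymerases, clamp loaders and Okazaki fragment processing fell, 7 of 10 of nucleotide supply and 2 of 6 of histone supply. Pold1, the catalytic subunit of polymerase delta, which works on the PCNA clamp, fell by 1.54 ± 0.17 on the log2 scale. Pole fell by 1.51 ± 0.30 and Chtf18, of an alternative clamp loader, by 1.66 ± 0.26. Tk1 (-1.47), Dctd (-1.25) and Dut (-0.95) led the nucleotide genes that fell. Samhd1 (0.89, higher with OHT in every context), Rrm2b (0.05) and Dck (0.04) were above 0 without passing. Nasp, a histone chaperone, fell by 2.21 ± 0.34 and Asf1a by 0.70 ± 0.14, while edgeR called 5 of the 6. Of the E2F and RB family genes 2 of 11 fell, E2f7 (-1.55 ± 0.25), a repressor in S phase, and Lin9 (-0.96 ± 0.18). Of the genes of G1/S kinases, their cyclins and other regulators, 3 of 6 fell, Cdk2 (-1.26), Cdc25a (-1.20) and Ccna2 (-1.20). The cyclin gene Ccne1 (-0.76) and the kinase inhibitor genes Cdkn1a (0.55, higher in every context) and Cdkn1b (0.001) did not pass. Genes of mitosis had 14 of 15 lower, with a median of -1.40, among them Birc5 (-2.61 ± 0.33), Cenpf (-1.93 ± 0.28) and Aurkb (-1.78 ± 0.26).

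**Figure D4:**
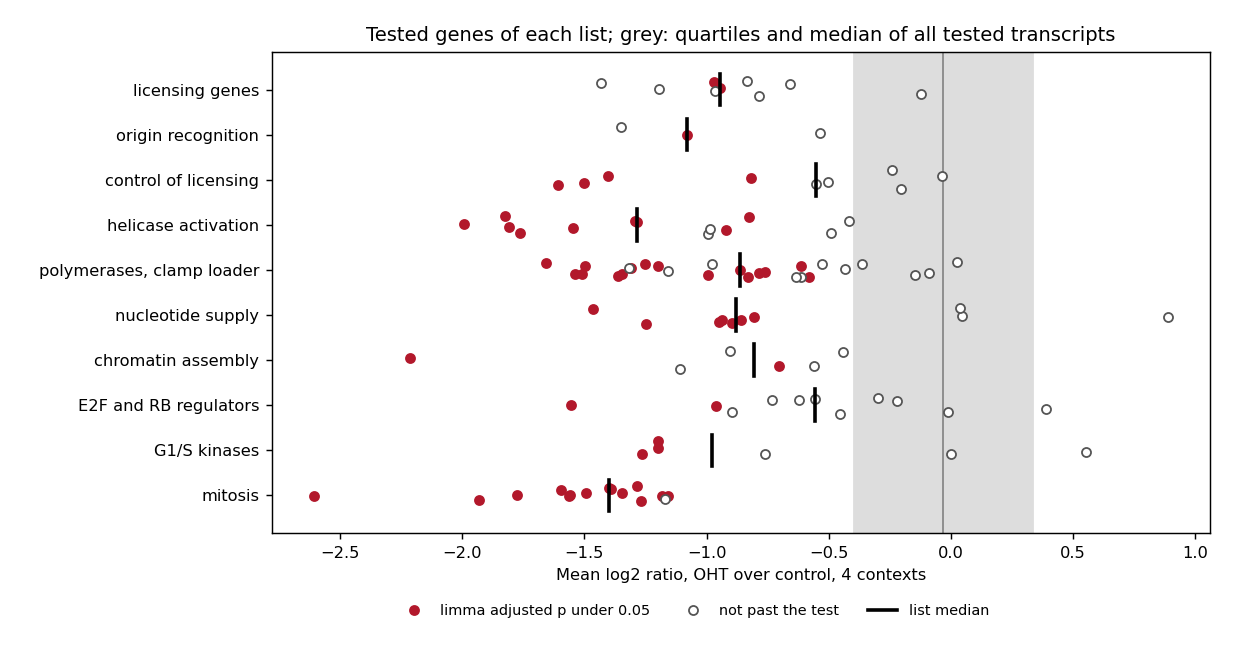
Mean log2 ratio of OHT over control across the 4 contexts for each tested gene, 1 row per list, with the quartiles and median of all tested transcripts in grey (-0.40, -0.03 and 0.34). Most points of the replication lists lie left of 0, the mitosis list lies lowest (median -1.40), and Pcna (-0.12) lies nearest to 0 of the licensing genes.

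The genes whose profiles over the 8 libraries were most like the mean profile of the 10 were Aurka, Utp15, Kif15, Mcm10 and Chaf1a, with Pearson r from 0.991 to 0.994 among transcripts with a mean of at least 100. The 8 libraries include both treatments, so a gene lower with OHT in the same contexts scores high, and no p is given. Aurka, a mitotic kinase, went from 998 to 255 in NT and from 643 to 424 in HOXA9. Utp15, of ribosome biogenesis, went from 848 to 559 and from 716 to 668. Within the group itself, each gene correlated with the mean of the other 9 at r from 0.908 (Mcm3) to 0.989 (Mcm5), except Pcna at 0.592.

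Markers of blood cell types differed between the same libraries. Of 15 macrophage genes 12 rose by limma (6.4% of all tested transcripts did) and 0 fell, and their summed value was 1701 to 4465 in controls and 11323 to 23179 in OHT libraries. In controls 0 to 3 of the 15 were at the lowest entry of a library and in OHT libraries none was. Adgre1 (F4/80) had a mean log2 ratio of 1.87 ± 0.37, Csf1r 2.34 ± 0.41, Mrc1 3.64 ± 0.67 and Cd68 1.21 ± 0.25. Fcgr1 (3.95), Cd14 (0.52) and Cx3cr1 (0.15) did not pass. Cx3cr1 was lower with OHT in NT (222 to 46.8) and PML-RARa (53.6 to 38.1), and Cd14 in PML-RARa (342 to 204). The sum was 3.26 times higher with OHT in NT, 5.19 times with HOXA9, 3.56 times with PML-RARa and 10.9 times with MLL-AF9. The macrophage sum differed least in NT and most in MLL-AF9, with 1 library per group. The part of these cells in the licensing values was not tested.

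**Figure D5:**
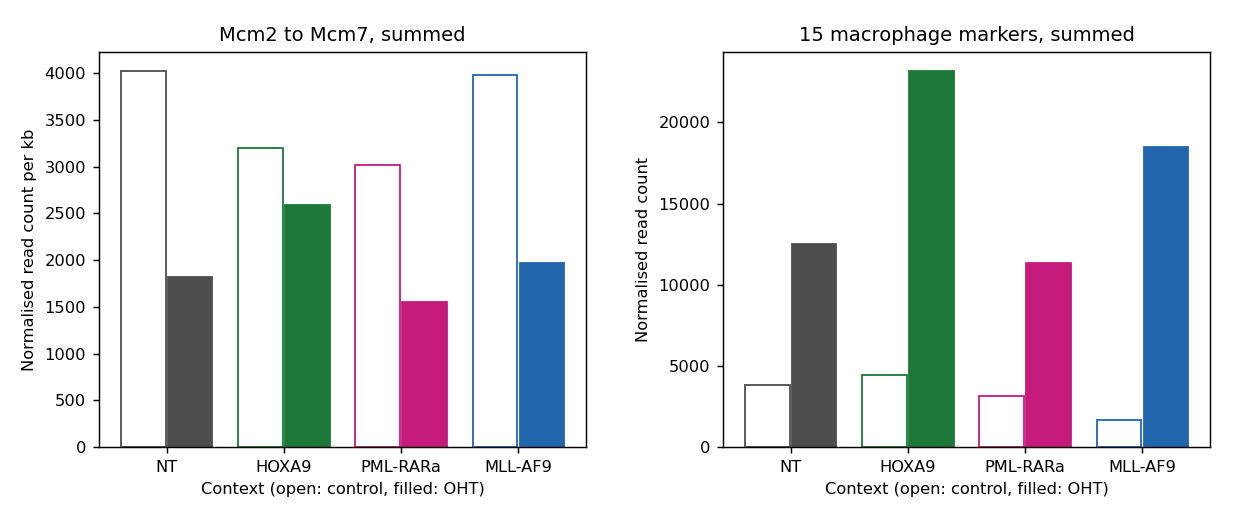
Summed MCM value per kilobase and summed value of 15 macrophage genes in the control (open) and OHT (filled) library of each context. The MCM sum is lower and the macrophage sum higher with OHT in all 4 contexts, and HOXA9 combines the highest MCM sum among OHT libraries (2589.9) with the highest macrophage sum (23179).

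Progenitor genes had sums of 1264 to 4715 in controls and 1369 to 5376 with OHT. Gata2 alone held 3379 of 4262 in the NT control and 3765 of 4715 in the PML-RARa control. Kit and Ly6a, with means of 13.5 and 3.92, were under the minimum for the test. Of the 10 matched, 0 or 1 stood at the lowest entry of a library, and the most abundant were Gata2, Erg, Procr and Cd34. Of 8 tested 2 fell, Myb (-1.89 ± 0.21), a factor of immature blood cells, and Erg (-1.01 ± 0.13), and 0 rose. Only 3 of the 8 had a negative mean log2 ratio, and the list median was 0.39. Procr (1.90), Slamf1 (0.87), Cd34 (0.57), Meis1 (0.54) and Gata2 (0.24) were above 0 without passing. Neutrophil genes, among them Mpo, Mmp8, Ctsg and Ngp, summed to 12863 to 19486 in controls and 9538 to 20351 with OHT. Of these, 0 of 13 passed in limma or edgeR, with 5 lower and 2 higher at an unadjusted p under 0.05. In 12 of the 13 a library had more than 0.5 reads per base, and the part of this density in their ratios was not tested. Erythroid genes (Tfrc, Gata1, Epor and Rhag the most abundant) had 0 of 5 called by either tool and 0 at an unadjusted p under 0.05, with sums of 2667 to 4224 and 3168 to 4697. Lymphoid genes, with Cd79b, Cd79a, Cd3d and Ncr1 the most abundant, summed to 81.3 to 228 in controls and 41.7 to 186 with OHT, with 2 to 6 of the 9 matched at the lowest entry.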

How the data were processed

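mRNA libraries of 8 groups, 1 library each, were analysed. Per the file headers, the signal columns are the authors' normalised read counts (base mean) per RefSeq transcript. The fold change (ratio), its log2 and an unadjusted p-value were deposited by the authors for each context. The p-value compares 1 library with 1. The submitters' processing notes name TopHat, DESeq and the build mm9, while the read counter and its annotation were not given in the sources used here. Values were whole multiples of a step per library, which gave back whole reads for 100% of values (tolerance 0.02). Between 15.1% and 20.0% of the 19353 transcripts stood at the lowest entry, 1 read, which may stand for 0. The scaling was shared by the 8 libraries, so levels are set side by side. A value of 100 reads carries a 95% Poisson interval of 81.4 to 122 reads, and intervals cover counting error only.

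limma (3.58.1, R 4.3.3) was run on log2(value + 1) with a block for each context and two-sided p-values, over 10599 transcripts with a mean of at least 20. Such a ratio understates the change of low transcripts. The same fit served the 3 transduced contexts and the NT contrast. edgeR (4.0.16, quasi-likelihood) and DESeq2 (1.42.0) on the recovered reads were alternatives, as were other pseudocounts, filters, scalings and prior variances and leaving out each pair. The fits were tested on simulated data. Within a context, calls needed a 2-fold difference and a value of 20 in the higher library. The labels do not say that libraries came from separate mice or cultures, so p-values measure only the spread between these pairs.

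Transcript lengths, exon overlaps and promoter windows came from RefSeq and GENCODE annotation of GRCm38, not of mm9. Of 19353 transcript IDs 19072 matched. The members, the 14 gene lists and the tests were chosen with earlier results of these data known, and the HOXA9 contrast after its values were seen. The comparison of Pcna with the MCM genes was not among the planned tests. Named genes were the 10 members, all genes of the origin, regulator and activation lists, and up to 3 called genes per direction in each other list with the largest ratio and the same sign in 4 contexts. The 5 most similar profiles and the 4 most abundant markers of each cell type were also named. Further genes of the nucleotide, G1/S, macrophage and progenitor lists were named for calls or their absence, for ratios in the other direction or for low values.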

Additional observations from a re-analysis of the deposited data

How the results depend on the processing

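Of the 9 tested genes, 2 were called across the 4 contexts. A pseudocount of 10 gave 6, a minimum mean of 100 gave 6, edgeR 7, DESeq2 8, and a prior variance that follows the mean level 8. No filter on low values gave 0, and 0 were called without transcripts over 0.5 reads per base, where 1 of the 9 was left. Leaving out 1 pair in turn gave 0 each time (0 to 0), with the Mcm6 ratio from -1.14 to -0.86 and its limma adjusted p from 0.061 to 0.12. In the 3 transduced contexts the count of 0 became 6 with DESeq2. The count of 39 other replication genes became 5 with no filter and 0 without any 1 pair (0 to 0). Without transcripts over 0.5 reads per base, 8 of the 10 genes were dropped and only Cdc6 and Gins1 were left. Genes at least 2-fold lower then numbered 2 in NT (from 8), 1 in PML-RARa (from 5) and 1 in MLL-AF9 (from 4). In MLL-AF9 they numbered 2 with centred ratios and 8 at 1.5-fold. No mean ratio over the 4 contexts changed sign under these settings. Over the 3 transduced contexts Pcna did with edgeR (0.02) and DESeq2 (0.01), and in the NT contrast Mcm6 did without the HOXA9 pair (0.08).

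The labels give 1 library per group and no replicate numbers, so the only pairing was by context, which is part of the chosen fit. Cdc6 rested on 4 to 30 reads per library, and its ratio was bounded away from no change only in NT. Cdt1 had 231 to 1230 reads in the same libraries, and why Cdc6 had few was not tested. With 1 pair per context, differences between contexts have wide intervals. The cause of the moves with prior, filter and left-out pair was not tested.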
